A study of Mus musculus with 12 samples.

Results

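Adam12 and the Adamts genes encode zinc proteases that act on cell surface proteins and on the extracellular matrix. The set was fixed by name, with earlier results of these data known, as Adam12, Adamts1, Adamts2, Adamts4, Adamts5 and Adamts12. Of these 6 genes, 5 had a probe set that the platform annotation pairs with that gene symbol alone, out of 18193 genes measured in this way. No such probe set was found for Adamts2, which was not analysed here. The 5 genes had 11 probe sets, and each gene is represented by its brightest probe set, judged on the mean of the 12 arrays.

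RNA of sorted dermal fibroblasts was hybridised to 12 Affymetrix mouse arrays, 1 per sample and 4 per group. The Pap group is papilloma-associated skin of InvEE mice, the InvEE group is inflamed skin of InvEE mice, and the WT group is normal skin of wild-type mice. InvEE mice express an activated form of the kinase MEK1 from the involucrin promoter, which is active in differentiating epidermal cells, so the transgene is not driven in the fibroblasts themselves. All mice were 7-week-old males, and mice of all 3 groups carried a PDGFRα-H2B-eGFP reporter allele, whose nuclear fluorescence was used for the sort. Nothing in the labels ties the replicates of a group to separate animals or says whether animals were pooled, and the p-values reflect variation among these arrays only, which may be technical.

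ADAM proteins are membrane-anchored proteases with a disintegrin domain that release growth factors and other proteins from the cell surface, whereas ADAMTS proteins are secreted and are held in the matrix by thrombospondin repeats. Both are made as inactive precursors, which proprotein convertases cut, and both are inhibited by Timp proteins, Timp3 above all. In skin, ADAMTS proteases process procollagen and cut versican, the large proteoglycan of the dermis.

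The genes lie on several chromosomes. In RefSeq (GRCm38.p6), Adam12 is on chromosome 7, Adamts4 on chromosome 1, Adamts12 on chromosome 15 and Adamts2 on chromosome 11. Adamts1 and Adamts5 are neighbours on chromosome 16, with no protein-coding gene between them. Of the measured genes, Adamts12 and Adamts1 had an entry in the RefSeq promoter table used here, and the 250 bases before their annotated starts are shown because Adamts12 rose in papilloma-associated skin and Adamts1 passed no test. Adam12, Adamts4 and Adamts5 had no entry. The Adamts12 window is chr15:11064523-11064772 on the plus strand and the Adamts1 window is chr16:85803114-85803363 on the minus strand, both written 5′ to 3′ with motif matches in capitals.
Adamts12: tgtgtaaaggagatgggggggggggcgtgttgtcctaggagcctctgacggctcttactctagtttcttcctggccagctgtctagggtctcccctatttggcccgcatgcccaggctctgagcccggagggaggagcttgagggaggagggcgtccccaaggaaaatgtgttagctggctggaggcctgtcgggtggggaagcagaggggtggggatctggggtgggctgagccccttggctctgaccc
Adamts1: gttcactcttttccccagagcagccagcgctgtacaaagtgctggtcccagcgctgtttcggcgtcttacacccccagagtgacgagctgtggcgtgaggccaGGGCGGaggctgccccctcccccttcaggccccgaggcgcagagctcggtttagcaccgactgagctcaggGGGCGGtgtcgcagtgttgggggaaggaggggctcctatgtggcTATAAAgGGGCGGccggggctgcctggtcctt

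Both strands were searched for 5 motifs, and no match shown overlaps another. The AP-1 letters TGANTCA were held by 6.75% of 32851 promoter windows of 250 bases. The TATA box letters TATAAA were held by 12.4% and the TEAD letters GGAATG by 12.6% of these windows. The RUNX letters TGTGGT were held by 14% and the SP1 GC box letters GGGCGG by 32.7%. Adamts1 held TATAAA at position -32 from the start and GGGCGG at positions -147, -76 and -25. The Adamts12 window held none of these letters. The G and C content was 63.2% for Adamts12 and 65.6% for Adamts1.

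Adam12, Adamts4 and Adamts12 rose in fibroblasts of papilloma-associated skin against those of normal skin and against those of inflamed skin, and Adamts1 and Adamts5 passed neither test. In both comparisons the 4 Pap arrays lay above every array of the other group for these 3 genes. This was so in 7.22% of all genes in Pap against WT and in 14.5% in Pap against InvEE. Values are log2 intensities, and differences were tested with limma, a linear model with moderated variances, over all genes and called at a Benjamini-Hochberg adjusted p under 0.05. Of all genes, 9.65% were called in Pap against WT and 4.85% were called higher. In Pap against InvEE 6.71% were called and 3.67% were called higher. The median difference of the 5 measured genes was 2.49 on the log2 scale in Pap against WT, beside 0.04 for all genes, and 1.93 in Pap against InvEE, beside 0.12. Since the genes were chosen with earlier results of these data known, these medians and calls are no independent evidence of direction.

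**Figure D1:**
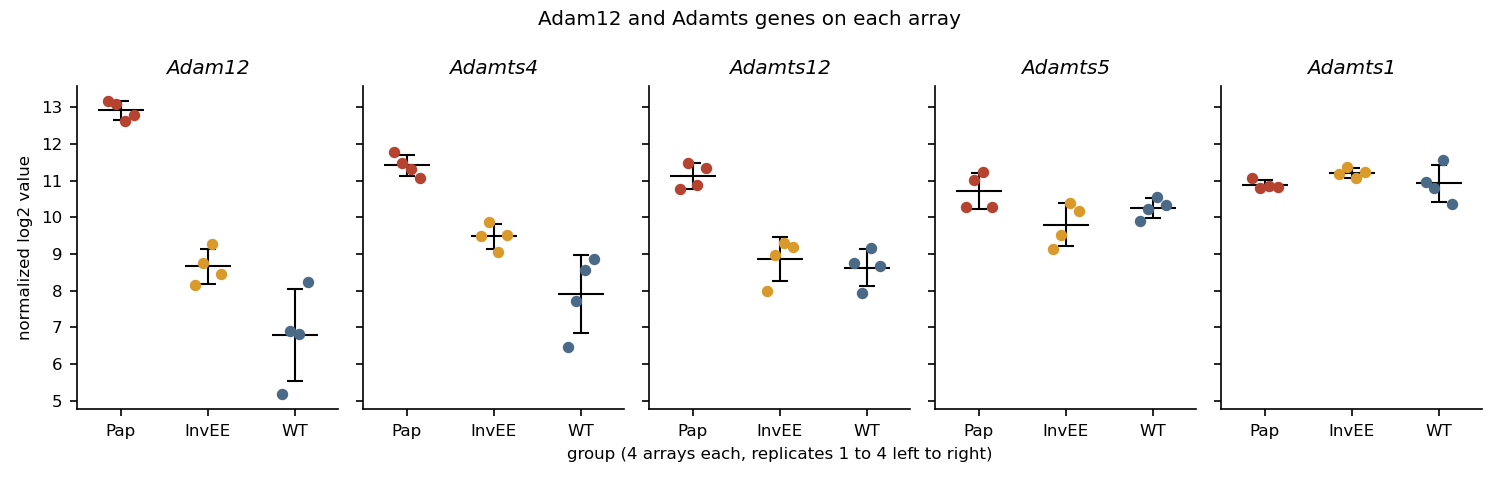
Normalized log2 value of each measured gene on each array (points), with group mean and SD (line and bars), for the Pap, InvEE and WT groups of 4 arrays; levels are to be compared within a panel. The Pap arrays of Adam12 (12.62 to 13.17), Adamts4 (11.08 to 11.78) and Adamts12 (10.77 to 11.48) lie above all InvEE and WT arrays, and the groups of Adamts5 and Adamts1 overlap.

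Adam12, whose product is a membrane-anchored protease known in humans to cut insulin-like growth factor binding proteins and HB-EGF, changed most. On probe set 1421171_at it had normalized log2 values of 13.17, 13.09, 12.62 and 12.78 in Pap arrays 1 to 4, 8.15, 8.76, 9.27 and 8.44 in InvEE arrays, and 5.17, 6.90, 6.81 and 8.23 in WT arrays. All Pap arrays were high, the InvEE arrays were intermediate, and WT array 4 reached into the range of the InvEE arrays. The difference of Pap against WT was 6.14 ± 0.49 (SE, n = 4 per group; adjusted p by limma 1.73e-05), which is 70.5-fold and the third highest difference of all genes. Against InvEE it was 4.26 ± 0.49 (adjusted p by limma 0.000421).

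The second Adam12 probe set, 1421172_at, separated all 3 groups. It had 12.67, 12.50, 12.19 and 12.80 in Pap arrays, 7.68, 8.63, 9.35 and 8.25 in InvEE arrays, and 6.97, 6.91, 6.62 and 6.29 in WT arrays. The WT arrays spread less on this probe set, with an SD of 0.31 against 1.25 on the first. In a limma fit over all 45037 probe sets other than controls, its differences were 5.85 ± 0.31 for Pap against WT, 4.06 ± 0.31 for Pap against InvEE and 1.79 ± 0.31 for InvEE against WT, with adjusted p-values of 1.78e-06, 3.13e-05 and 0.0422. All 3 were called, where 7.65%, 5.59% and 0.318% of probe sets were called in these comparisons.

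Adamts4, an aggrecanase that cuts aggrecan and versican, also had its highest values in papilloma-associated skin. On probe set 1452595_at the Pap arrays had 11.78, 11.47, 11.31 and 11.08, the InvEE arrays 9.49, 9.87, 9.04 and 9.52, and the WT arrays 6.47, 7.72, 8.57 and 8.87. No 2 groups overlapped, while the WT arrays spread over a wider range than the others. Pap arrays differed from WT arrays by 3.51 ± 0.42, or 11.4-fold (adjusted p by limma 0.000304), and from InvEE arrays by 1.93 ± 0.42 (adjusted p by limma 0.019). The second probe set, 1455965_at, gave 3.81 ± 0.29 and 2.73 ± 0.29, both called over all probe sets, and again no 2 groups overlapped. For Pap against InvEE the Adamts4 call ended without Pap array 1 (1.81, adjusted p by limma 0.0512) or InvEE array 1 (1.93, adjusted p by limma 0.0571), and in an ordinary linear model without moderated variances (1.93, adjusted p 0.0522).

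Adamts12, whose product is known to cut the cartilage matrix protein Comp, had 10.77, 11.48, 10.87 and 11.35 in Pap arrays, 7.995, 8.96, 9.30 and 9.20 in InvEE arrays, and 8.74, 7.94, 9.15 and 8.67 in WT arrays. These values are from probe set 1439827_at. The InvEE and WT arrays overlapped, and the Pap arrays stood above both. The difference was 2.49 ± 0.32 against WT, or 5.62-fold (adjusted p by limma 0.000471), and 2.26 ± 0.32 against InvEE (adjusted p by limma 0.00155). The second probe set, 1446666_at, was called in neither comparison and gave 0.39 ± 0.31 and 0.68 ± 0.31, at group means of 6.82 ± 0.67 (SD) in Pap, 6.14 ± 0.40 in InvEE and 6.43 ± 0.24 in WT arrays. With the mean of both probe sets as the value of the gene, Pap against WT was 1.44 and still called. A group mean under 6.163, below which 40% of all probe-set means lie, is called dim here, and the InvEE mean of this second probe set was dim.

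Adamts5, the aggrecanase encoded beside Adamts1, had 10.28, 11.02, 11.24 and 10.28 in Pap arrays, 9.13, 9.51, 10.38 and 10.18 in InvEE arrays, and 9.89, 10.24, 10.56 and 10.34 in WT arrays on probe set 1456404_at. The 3 groups overlapped. Pap differed from WT by 0.45 ± 0.31 (95% confidence interval -0.22 to 1.11; adjusted p by limma 0.439) and from InvEE by 0.91 ± 0.31 (0.24 to 1.57; adjusted p by limma 0.0963). Its 3 other probe sets gave differences of Pap against InvEE between 0.32 and 1.25, none called. The value 1.25 belongs to probe set 1456969_at, which was dim in all groups and where Pap array 4 stood at 8.59 and the other Pap arrays between 4.01 and 4.29. For Pap against InvEE, 4 alternative settings took Adamts5 past the threshold, with differences between 0.82 and 1.30. These were a shift of each array to a common level of 48 ribosomal protein genes, the mean of all probe sets, weights for the arrays by their variability, and replicate number as a block.

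Adamts1, a protease that cuts versican, had 11.06, 10.79, 10.86 and 10.81 in Pap arrays, 11.17, 11.38, 11.06 and 11.23 in InvEE arrays, and 10.96, 10.80, 11.56 and 10.36 in WT arrays. It is measured by probe set 1450716_at alone. The WT arrays spanned the whole range of the other groups. Pap differed from WT by -0.04 ± 0.22 (95% confidence interval -0.51 to 0.43) and from InvEE by -0.33 ± 0.22 (-0.80 to 0.14), and the adjusted p-values by limma were 0.942 and 0.335. The difference from WT was 0.17 without WT array 3, and both differences were above 0 after the shift by ribosomal protein genes (0.17 and 0.07).

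**Figure D2:**
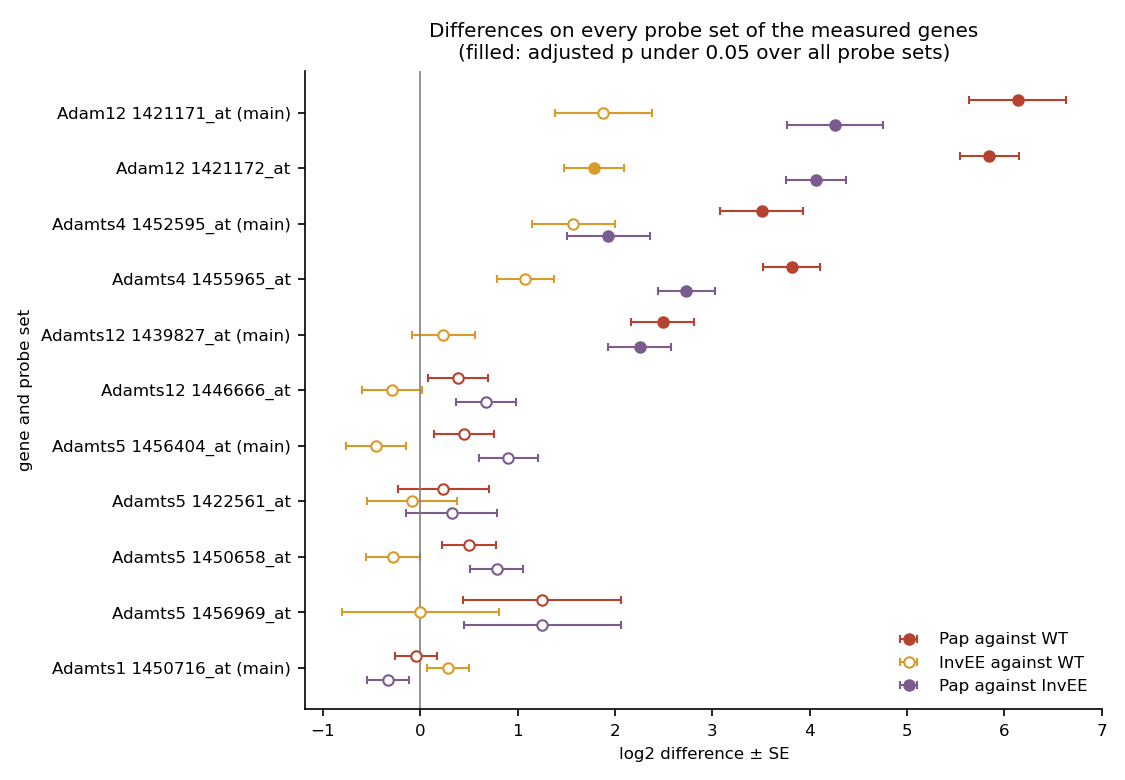
Log2 difference with SE (bars) for each of the 11 probe sets of the 5 measured genes in 3 comparisons; filled points have an adjusted p under 0.05 over all 45037 probe sets. Both probe sets of Adam12 and of Adamts4 lie far right of 0 for Pap against WT (3.51 to 6.14), and the probe sets of Adamts12 differ (2.49 and 0.39).

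In inflamed skin none of the 5 genes passed the test over all genes on its main probe set, where limma called 0.533% of all genes, 0.258% of all genes being called higher, and 15.6% had an unadjusted p under 0.05. Adam12 and Adamts4 had the highest differences of InvEE against WT, 1.88 ± 0.49 (unadjusted p by limma 0.00248, adjusted p 0.114) and 1.57 ± 0.42 (unadjusted p by limma 0.00294, adjusted p 0.119). The 4 InvEE arrays lay above all WT arrays for Adamts4, and 3 of 4 did for Adam12. For Adam12 the other probe set, described above, was called. All InvEE arrays lay above all WT arrays in 5.07% of all genes. Adamts12 differed by 0.24 ± 0.32 (95% confidence interval -0.46 to 0.93), Adamts1 by 0.29 ± 0.22 (-0.18 to 0.75) and Adamts5 by -0.46 ± 0.31 (-1.12 to 0.21), with adjusted p-values by limma of 0.724, 0.521 and 0.478. The median of the 5 genes was 0.29, beside -0.09 for all genes. With single arrays left out, the difference spanned 1.35 to 2.38 for Adam12 and 1.10 to 1.90 for Adamts4. Of 27 alternatives, 4 called Adam12 and 2 called Adamts4. Without WT array 4 the difference of Adam12 was 2.38 and was called (adjusted p by limma 0.0417). Adam12 and Adamts4 were both called with the mean of all probe sets as the value of a gene, Adam12 at 1.83 (adjusted p by limma 0.0154) and Adamts4 at 1.33 (adjusted p by limma 0.0156). Both were also called with arrays weighted by their variability, Adam12 at 1.94 (adjusted p by limma 0.013) and Adamts4 at 1.77 (adjusted p by limma 0.0145). More genes were called at large under these settings, 228 with the mean of probe sets and 839 with array weights, against 97 in the main fit.

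The order of the group means was Pap, InvEE, WT for Adam12 and Adamts4. In Adamts12 the order was the same, with InvEE and WT closer to each other than their spread. For Adamts5 the order was Pap, WT, InvEE and for Adamts1 it was InvEE, WT, Pap, and no neighbours in either order differed past the test. The 3 comparisons share arrays, so their differences are given side by side and not set against each other.

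Levels in the arrays were checked for other cells and for RNA quality. Pdgfra, the gene of the reporter, had means of 10.87 ± 0.35 (SD) in Pap, 10.62 ± 0.22 in InvEE and 9.94 ± 0.49 in WT arrays. It was called higher in Pap against WT (0.93 ± 0.25, adjusted p by limma 0.0349), while its other probe sets gave 1.09 and 1.75, not called. All 8 fibroblast markers were above the dim limit in all groups. Of these, 1 was called higher in Pap against WT and 1 in Pap against InvEE. Of 12 keratinocyte markers 3 were called higher in Pap against WT and 2 in InvEE against WT, and 1 was called lower in Pap against InvEE. Their mean spanned 6.62 to 8.33 in Pap, 7.59 to 8.88 in InvEE and 6.34 to 6.78 in WT arrays, and 2, 1 and 5 of them were dim in these groups. Of 9 pericyte and smooth muscle markers, none dim, 3 were called lower in Pap and 2 in InvEE against WT, and 4 in Pap against InvEE. In Pap against WT these were Kcnj8 (-4.005), Ndufa4l2 (-3.20) and Abcc9 (-2.12). The other 6 were not called, among them Rgs5 (0.63) and Mcam (0.64). The mean of all 9 markers spanned 7.16 to 7.58 in Pap, 7.83 to 8.15 in InvEE and 8.36 to 8.50 in WT arrays. Of 10 macrophage and neutrophil markers, 1 was called higher and 1 lower in Pap against WT, 1 higher in Pap against InvEE and none in InvEE against WT by limma. S100a9, a neutrophil protein, was at 7.10 ± 0.51 in Pap, 6.08 ± 0.30 in InvEE and 5.99 ± 0.20 in WT arrays, and was dim in InvEE and WT. Its differences were 1.11 ± 0.24 for Pap against WT and 1.02 ± 0.24 for Pap against InvEE. Csf1r, a macrophage growth factor receptor, was at 9.62 ± 0.68 in Pap, 10.49 ± 1.02 in InvEE and 11.77 ± 0.13 in WT arrays. It fell by 2.14 ± 0.45 in Pap against WT, while its other probe sets gave -1.496 and -0.483, not called. The mean of these 10 markers was 6.75 ± 0.18 in Pap, 6.62 ± 0.19 in InvEE and 6.87 ± 0.19 in WT arrays, and 3, 4 and 4 of them were dim in these groups. The poly-A spike controls averaged 10.99 ± 1.16 in Pap, 8.23 ± 0.32 in InvEE and 10.54 ± 1.27 in WT arrays. The Gapdh 3′ minus 5′ difference, a measure of RNA integrity, was 2.80 ± 0.66 in Pap, 2.15 ± 0.83 in InvEE and 1.84 ± 0.30 in WT arrays. The same difference for Actb spanned -0.29 to 0.24 in Pap and -0.56 to -0.41 in WT arrays, and the fibroblast marker mean spanned 13.13 to 13.30 in Pap and 13.00 to 13.12 in WT arrays. For Pap against WT, the pericyte mean, the Gapdh and Actb measures and the fibroblast mean did not overlap between the groups (for each, exact permutation p = 0.0286, the smallest 4 against 4 arrays allow, and 0.0858 adjusted over 39 tests). The same p-values held in InvEE against WT for the keratinocyte, pericyte and mast cell means and the spike and hybridisation controls. In Pap against InvEE they held for the fibroblast, pericyte and skeletal muscle means and the spike controls. Of the T cell, endothelial, Schwann cell and melanocyte, mast cell and skeletal muscle markers, limma called none in any comparison. The part of these markers and controls in the differences of the protease genes was not tested beyond the covariate fits given next. In bulk samples, fewer cells of a type and less RNA per cell cannot be told apart.

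**Figure D3:**
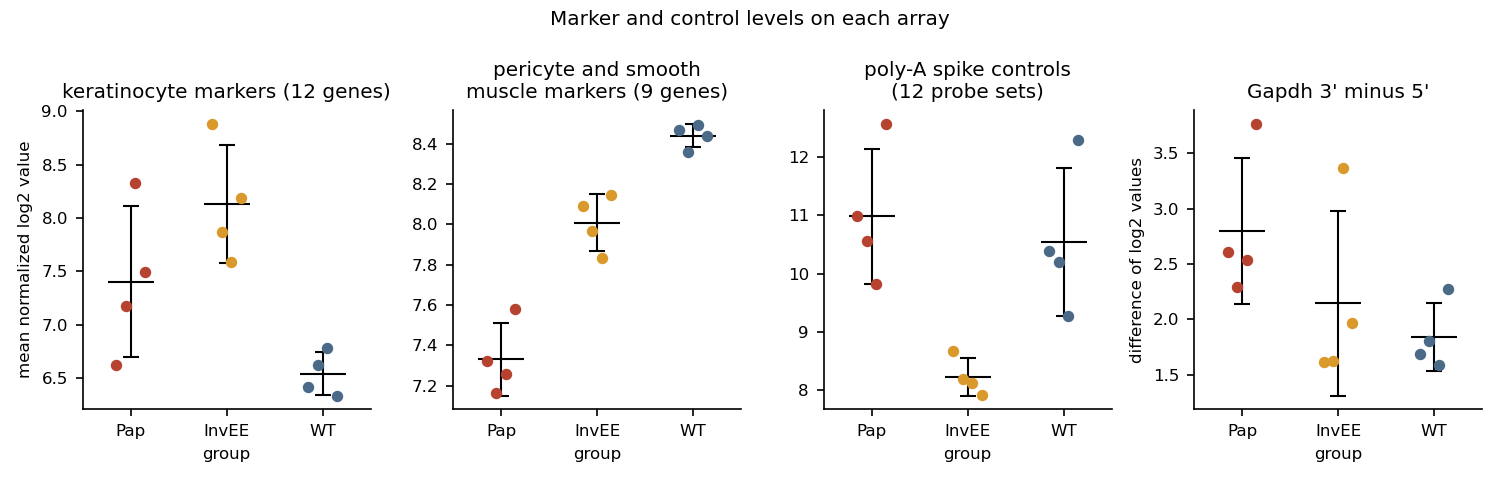
Mean normalized log2 value per array of keratinocyte markers, pericyte and smooth muscle markers and poly-A spike controls, and the Gapdh 3′ minus 5′ difference, for 4 arrays per group with mean and SD. Pericyte markers are lowest in Pap arrays (7.16 to 7.58), keratinocyte markers are lowest on average in WT arrays (6.34 to 6.78), and the spike controls are lowest in InvEE arrays.

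With the spike control level as a covariate, Adam12, Adamts4 and Adamts12 were still called in Pap against WT. In Pap against InvEE, where the spike controls did not overlap between the groups, their differences were 3.50, 1.72 and 2.38 and none was called (adjusted p by limma 0.0596, 0.278 and 0.0592). With the Gapdh difference as a covariate, all 3 were called in both comparisons. Pap array 4 and WT array 4 had the highest lower quartiles of deposited values (5.50 and 5.43, against 5.22 to 5.33 on the other arrays). With both left out, a setting chosen after seeing the data, 3 of the 5 genes were called in Pap against WT, 3 in Pap against InvEE, and Adam12 alone in InvEE against WT (2.40, adjusted p by limma 0.0332).

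Among other proteases of both families, single genes rose and fell. Beside the list counts that follow, 9.65% of all genes were called in Pap against WT and 6.71% in Pap against InvEE, in either direction. Of 11 measured ADAMTS proteases outside the set, 1 rose and 2 fell in Pap against WT, with a list median of 0.78. Adamts7, which like Adamts12 is known to cut Comp, rose by 1.44 ± 0.20 to 9.32 ± 0.43 (SD) in Pap, against 7.88 ± 0.18 in WT arrays. Adamts10, which acts on fibrillin microfibrils, was at 7.38 ± 1.43 in Pap and 10.62 ± 0.09 in WT arrays, and fell by 3.24 ± 0.52. Its second probe set fell by 2.21. Adamts8 fell by 1.13 ± 0.18 and was dim in both groups. Adamts7 (1.05) and Adamts10 (-2.48) were also called in Pap against InvEE.

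Of 12 other ADAM genes 3 rose and 1 fell in Pap against WT, with a median of 0.29. Adam19, a membrane-anchored protease closely related to Adam12, rose by 3.53 ± 0.36 to 10.71 ± 0.53 in Pap, against 7.18 ± 0.74 in WT arrays, and its second probe set rose by 2.09. Adam23, a member without protease activity, rose by 1.85 ± 0.32, and Adam9, a widely expressed sheddase, by 1.34 ± 0.31. Adam33 fell by 1.83 ± 0.29, and its second probe set fell by 1.64 in Pap against WT. In Pap against InvEE Adam19 (2.54 ± 0.36) and Adam23 (1.79 ± 0.32) rose. Of 7 measured ADAMTS-like proteins, which lack the protease domain, 3 fell in Pap against WT and none rose (median -0.96). Adamtsl1 fell by 2.39 ± 0.41, while its 2 other probe sets gave -0.30 and -1.66 and were not called. Adamtsl5, which binds fibrillin microfibrils, fell by 1.83 ± 0.35, and Adamtsl4 by 1.25 ± 0.25. Thsd4 fell in Pap against InvEE by 1.40 ± 0.32, with Pap dim, and its other probe set gave 0.16, not called. The Thsd4 call was lost after the shift by ribosomal protein genes. No gene of these 3 lists was called in InvEE against WT by limma on its main probe set.

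**Figure D4:**
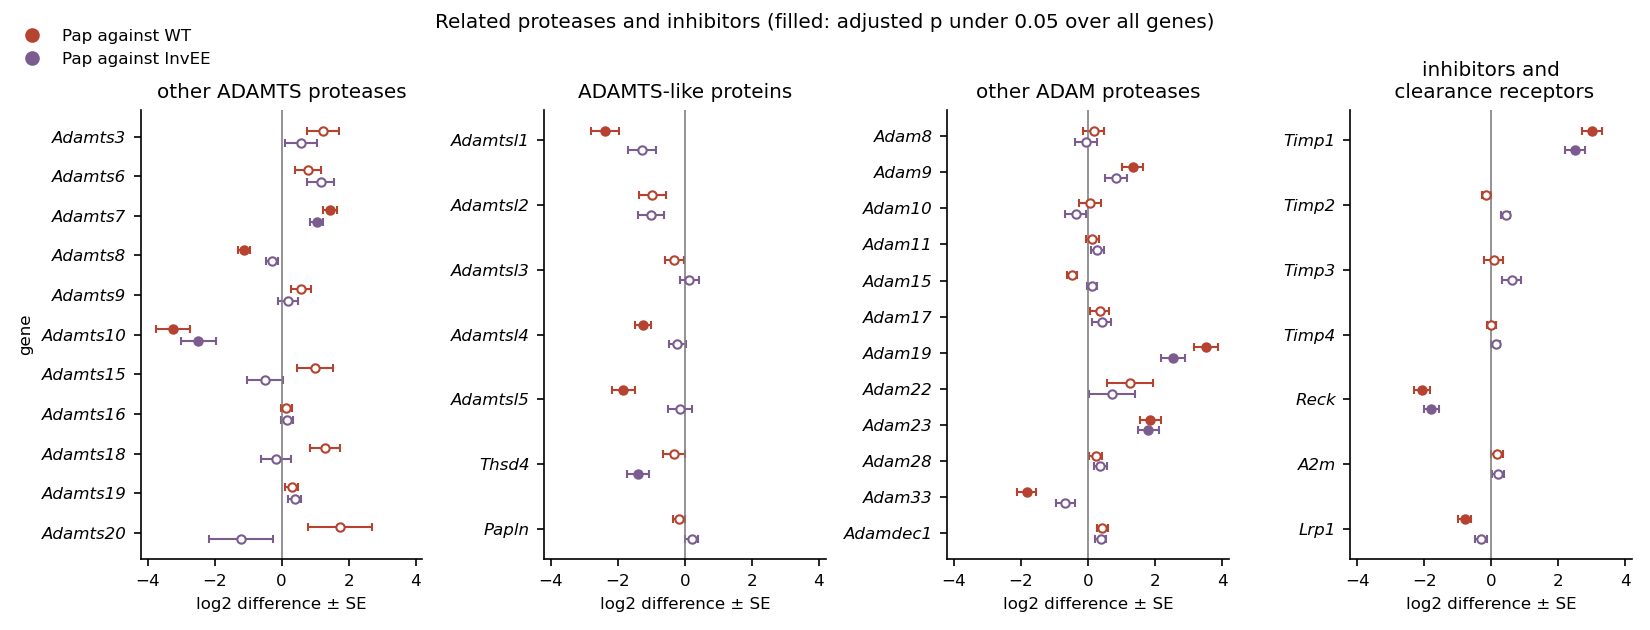
Log2 difference with SE (bars) of Pap against WT and Pap against InvEE for related proteases, ADAMTS-like proteins, and inhibitors and clearance receptors; filled points have an adjusted p under 0.05 over all genes. Adam19 (3.53) and Timp1 (3.02) stand farthest to the right and Adamts10 (-3.24) farthest to the left in Pap against WT.

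Of 6 inhibitors, Timp1 rose and Reck fell in Pap against WT, and Timp2, Timp3, Timp4 and A2m were not called, with differences of -0.14, 0.07, 0.00 and 0.17. With the clearance receptor Lrp1, 1 of 7 genes rose and 2 fell in Pap against WT (median 0.00). Timp1, a secreted metalloprotease inhibitor that acts weakly on most ADAMTS proteases, rose by 3.02 ± 0.30 to 11.65 ± 0.55 in Pap, against 8.63 ± 0.45 in WT arrays, and by 2.51 ± 0.30 against InvEE. Timp3, the main inhibitor of ADAMTS proteases, had 10.85 ± 0.13 in Pap and 10.78 ± 0.39 in WT arrays and passed no test (0.07 ± 0.28). Reck, a membrane-anchored protease inhibitor, fell by 2.07 ± 0.23 against WT and by 1.79 ± 0.23 against InvEE. Lrp1, the endocytic receptor that clears Adamts4 and Adamts5, fell by 0.80 ± 0.18 against WT, a call lost after the shift by ribosomal protein genes. Of 6 convertases and folding enzymes, Pcsk5, a proprotein convertase, rose in Pap against WT (1.03 ± 0.25; 2 of its 5 probe sets called), and Pofut2, which adds fucose to thrombospondin repeats, rose in Pap against InvEE (0.89 ± 0.21, called on all 4 probe sets). The medians of this list were 0.63 and 0.49. Furin, the convertase best known for ADAM and ADAMTS precursors, was not called (0.68 ± 0.25 against WT, adjusted p by limma 0.124).

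Among matrix substrates, 3 of 11 measured genes rose in Pap against WT and none fell (median 0.41). Versican, Vcan, the dermal substrate of Adamts1, Adamts4 and Adamts5, had 12.53 ± 0.30 in Pap, 12.26 ± 0.82 in InvEE and 11.44 ± 0.52 in WT arrays, and its difference of 1.09 ± 0.38 against WT was not called (adjusted p by limma 0.0975). Thbs1, thrombospondin 1, rose by 4.01 ± 0.21 against WT and by 3.31 ± 0.21 against InvEE. Fbn2, fibrillin 2, rose by 2.65 ± 0.35 against WT, and Fn1, fibronectin, by 0.84 ± 0.23 against WT and 1.30 ± 0.23 against InvEE. The Fn1 call against WT was lost on the values as deposited. Against InvEE 3 genes rose and 1 fell (median 0.34), and Acan, aggrecan, fell by 1.63 ± 0.28 to 7.08 ± 0.41 in Pap, against 8.71 ± 0.40 in InvEE arrays. In WT arrays Acan was at 7.30 ± 0.46. Its differences of -0.22 ± 0.28 for Pap against WT and 1.41 ± 0.28 for InvEE against WT were not called (adjusted p by limma 0.716 and 0.052). Bgn, biglycan, was 0.56 ± 0.12 higher in Pap than in InvEE arrays, a call lost on the values as deposited. Of 6 procollagen genes whose products Adamts2 or its relatives process, Col5a1 and Col5a2 rose against WT (0.85 ± 0.21 and 0.95 ± 0.17) and against InvEE (1.09 ± 0.21 and 1.11 ± 0.17), with list medians of 0.12 and 0.41. Of 7 substrates and partners of Adam12, Itgb1, the integrin beta 1 chain, rose against WT (1.12 ± 0.25; 3 of 6 probe sets called) and against InvEE (1.25 ± 0.25; 1 of 6). The medians were -0.44 and -0.02. Igfbp3 and Igfbp5, growth factor binding proteins that human ADAM12 cuts, were not called in any comparison. In InvEE against WT limma called no gene of these lists on its main probe set, and the second probe set of Fbn2 was called (3.13, adjusted p by limma over all probe sets 0.0436). Over all lists of related genes, 35 differences were called, and all 35 kept their sign on the values as deposited, after the shift to a common median and after the shift by ribosomal protein genes.

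The genes with the most similar pattern were found as those with the smallest root mean square difference over the 12 arrays after each gene was centred on its own mean, a measure that is largely set by the group means. Nearest to Adam12 were Col12a1, a fibril-associated collagen (0.75 on the log2 scale), Bpgm, a glycolytic side-branch enzyme (0.96), and Pla1a, a phospholipase (0.96). Col12a1 had 13.15 ± 0.12 in Pap, 8.13 ± 0.21 in InvEE and 7.13 ± 0.20 in WT arrays. Nearest to Adamts4 were Palld, the actin-associated protein palladin (0.31), Megf6 (0.53) and Vmp1, a membrane protein of autophagy (0.58). Palld had 11.24 ± 0.24 in Pap, 9.44 ± 0.47 in InvEE and 7.95 ± 0.66 in WT arrays. Nearest to Adamts12 were Rtp4, an interferon-induced protein (0.36), Nuak1, a protein kinase (0.39), and Rflna (0.39). Within the measured genes of the set, the closest lay at 1.26 for Adam12 (Adamts4) and at 0.92 for Adamts4 and Adamts12 with each other. The nearest patterns were picked from all genes and these from the set alone, so the distances cannot be compared.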

How the data were processed

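The authors deposited 1 table of log2 values for 45101 probe sets on 12 arrays. How its values were summarised, background-corrected and normalized is not given in the sources used here. Limma is named without a version, per the submitters' processing notes. The values spanned 2.08 to 14.96, no pair of arrays shared over 0.253% of identical values, and array quartiles spanned up to 0.284, so quantile normalization was applied. Of the probe sets, 64 were controls, 34945 had 1 gene symbol, 932 several and 9160 none. The probe set with the highest mean stood for each of 18193 genes. Limma 3.58.1 in R 4.3.3 fitted 3 group means to all 12 arrays (lmFit, eBayes), with Benjamini-Hochberg adjustment over all genes and two-sided tests at an adjusted p of 0.05. No filter on dim genes was used. The fit was tested on simulated data. Array measures were compared with exact two-sided permutation tests. The number of arrays limits the precision.

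The genes and lists were chosen with earlier results of these data known, and the lists are no independent evidence of direction. Genes are named by a fixed rule: the 6 genes of the set, Pdgfra, at most 4 called genes of each list and comparison with the largest differences, and the 3 nearest patterns of each called gene. Vcan, Timp2, Timp3, Timp4, A2m, Furin, Igfbp3, Igfbp5, S100a9, Csf1r, Kcnj8, Ndufa4l2, Abcc9, Rgs5 and Mcam were named beyond this rule after their values were seen. Alternatives covered the scaling, the choice of probe set, a filter on dim genes, the arrays fitted, the replicate block, the variance model, covariates, the threshold and each array left out. Equal replicate numbers were not treated as pairs, since not every same-numbered pair correlated above 0.1 over genes. Whether arrays of 1 number were processed together was not tested.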

Additional observations from a re-analysis of the deposited data

Results flagged for a closer look

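In 72 groups of 4 arrays, over the 11 probe sets and the array measures, 3 arrays stood apart from the rest of their group by Dixon's test at 95%. Chance flags about 1 in 20 groups. Pap array 4 had 8.59 on Adamts5 probe set 1456969_at, where the other Pap arrays had 4.01 to 4.29. On Adamts4 probe set 1455965_at WT array 4 had 6.50, and the other WT arrays 7.04 to 7.10. InvEE array 4 had 9.37 on Adamts5 probe set 1450658_at, and the other InvEE arrays 8.59 to 8.68. None of these is the main probe set of its gene.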

How the results depend on the processing

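Of 405 values of single genes of the set under alternatives, 379 kept their direction and side of the threshold, 6 lost and 10 gained the call and 10 changed sign. Adam12, Adamts4 and Adamts12 were called in Pap against WT under all 27 alternatives, with ranges of 5.60 to 6.70, 3.03 to 3.94 and 1.44 to 2.70. Sign changes were in differences that were not called: Adamts1 in Pap against WT (0.035 on deposited values, 0.17 with the ribosomal shift, 0.086 with the median shift, 0.049 and 0.145 with the spike and Gapdh covariates, and -0.227 to 0.172 with single arrays left out), in InvEE against WT (-0.17, spike covariate) and in Pap against InvEE (0.068, ribosomal shift; 0.22, spike covariate), and Adamts12 in InvEE against WT (-0.029, mean of probe sets). The cause was not tested.

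Of the 5 genes, 2 were called in InvEE against WT with the mean of probe sets or array weights, 1 with Pap 4 and WT 4 left out, and 0 to 1 with single arrays left out. In Pap against InvEE 0 were called with the spike covariate and 2 to 3 with single arrays left out.

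Over all genes, limma called 1756 in Pap against WT (50.3% higher; 70.1% with the ribosomal shift, which moved the median by 0.21). This was 3444 for probe sets tested alone, which are more tests, 1094 on 8 arrays, 970 with the Gapdh covariate, 757 at 0.01 and 1261 to 1791 with single arrays left out. In InvEE against WT 97 were called (48.5% higher; 27.6% with the ribosomal shift of -0.19). Alternatives gave 62 on deposited values, 60 with the median shift, 228 with the mean of probe sets, 57 with the replicate block, 839 with array weights, 4 without moderation, 0 with the spike covariate (2218 at an unadjusted p under 0.05), 152 with the Gapdh covariate, 0 at 0.01 (2837 unadjusted under 0.05), 213 without Pap 4 and WT 4, and 0 to 252 with single arrays left out. The count was 0 without InvEE 1, InvEE 2 or WT 1 (1964 to 2356 unadjusted), 13 without WT 2, 44 without InvEE 3, 50 and 55 without Pap 2 and Pap 3, and 252 without Pap 4. In Pap against InvEE 1221 were called (54.7% higher; 91.6% with the ribosomal shift of 0.40). Alternatives gave 3906 with the ribosomal shift, 2518 for probe sets alone, 2813 with array weights, 306 and 778 with the spike and Gapdh covariates, 396 at 0.01 and 578 to 1577 with single arrays left out (578, 621 and 716 without InvEE 1, 2 and 4).

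Same-numbered arrays correlated between -0.09 and 0.18 in their deviations from the group means, and not every array correlated best with its own number. The poly-A spike controls had the same order by number in Pap (10.99, 10.56, 9.83 and 12.57 in replicates 1 to 4) and WT arrays (10.39, 10.20, 9.27 and 12.29), but not in InvEE arrays (8.68, 8.19, 8.13 and 7.92). Array 4 was also highest in Pap and in WT for the lower quartile, the hybridisation controls and the Gapdh difference. With the replicate block 1551 genes were called in Pap against WT and 1039 in Pap against InvEE, and of the set Adamts5 gained a call in Pap against InvEE (adjusted p by limma 0.0465) while no other call changed.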
